A study of Mus musculus with 18 samples.

Results

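The Spata genes, whose name marks a gene as associated with spermatogenesis, were followed in round spermatids (RS) of the mouse testis. Members were chosen by symbol alone, as every gene of the count table whose symbol is Spata followed by a digit, with pseudogenes ending in -ps left out. This gave 30 of the 54232 genes, of which 29 are annotated as protein coding and 1, Spata5l1, as a processed transcript. RS are the haploid cells left by meiosis, before elongation of the spermatid starts. Total RNA of RS was compared between WT mice, GRTH KO mice and GRTH KI mice of 75 to 85 days of age, with 6 libraries per genotype. GRTH KO mice lack GRTH, the RNA helicase that Ddx25 encodes, and GRTH KI mice carry a human GRTH gene with a missense mutation that abolishes the phosphorylated form of the protein. Both mutant genotypes are sterile with germ cells that stop as RS, and cells were separated by sedimentation, so that an RS fraction of a mutant need not hold the same steps as one of WT. The sources used here do not say how many mice gave a library, and the p-values measure the spread between these libraries, which may be partly technical.

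The shared name reflects where the genes were found to be expressed, and most members encode unrelated proteins. During spermiogenesis the round cell builds an acrosome over its nucleus, couples the head to a growing tail through the connecting piece, wraps the midpiece in a sheath of mitochondria and condenses its chromatin. Spata16 and Spata46 are known for roles in the head, Spata6 in the connecting piece, and Spata18, Spata19 and Spata33 in mitochondria or the midpiece. Spata22 acts earlier, in meiotic recombination, and Spata2, Spata5, Spata7, Spata13 and Spata20 are used in other tissues as well. Transcription of many spermatid genes is driven by CREM, a factor that binds the cAMP response element TGACGTCA and its core TGACG.

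Members lie on 12 chromosomes, with 6 on chromosome 13, of which 5 are the Spata31 genes. Promoter windows from RefSeq on GRCm38.p6, running from 250 bases before to 50 bases after each start, were matched for 28 members in 35 windows, and 32851 windows of all genes served for comparison. The complete element TGACGTCA was found, on either strand, in 1.79% of all windows and in 1 member, Spata7, and the core TGACG in 20.8% of all windows and in 9 of the 28 members (11 of 35 windows). Those members were Spata1, Spata18, Spata2, Spata32, Spata48, Spata5, Spata5l1, Spata6 and Spata7, and each complete element also holds the core. GTTGCC, a part of the X-box, was found in 12.5% of all windows and in 4 members, and TATAAA in 13.6% of all windows and in 2 members. The 150 bases before the start are given here for the 3 genes called past 1 log2 unit in both mutants, to show what their promoters do and do not share, and for Spata7 as the one member with the complete element. Capitals mark the core in either orientation (TGACG or CGTCA), and each line reads 5′ to 3′ on the strand of the gene.
Spata3: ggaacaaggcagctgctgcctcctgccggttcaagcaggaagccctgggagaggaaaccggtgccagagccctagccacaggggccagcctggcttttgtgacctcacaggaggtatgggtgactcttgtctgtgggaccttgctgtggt
Spata18: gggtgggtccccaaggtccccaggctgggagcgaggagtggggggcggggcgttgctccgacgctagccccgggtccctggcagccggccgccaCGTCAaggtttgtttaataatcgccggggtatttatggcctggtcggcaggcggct
Spata32: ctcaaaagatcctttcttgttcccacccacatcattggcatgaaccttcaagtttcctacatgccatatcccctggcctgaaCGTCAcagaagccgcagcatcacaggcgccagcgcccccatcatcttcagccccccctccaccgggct
Spata7: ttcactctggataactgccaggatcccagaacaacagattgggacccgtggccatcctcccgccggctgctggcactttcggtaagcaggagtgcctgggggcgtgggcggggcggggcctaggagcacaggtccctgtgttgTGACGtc

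The Spata3 stretch is chr1:86021795-86021944 on the plus strand and contained no core, the Spata18 stretch chr5:73651230-73651379 on the plus strand, the Spata32 stretch chr11:103218433-103218582 on the minus strand and the Spata7 stretch chr12:98627992-98628141 on the plus strand. The core began at position -56 from the start in Spata18 and at position -68 in Spata32. In Spata7 the complete element began at position -7, so that its last base lies past the stretch shown. The RefSeq start of Spata3 used here lies within the span of the annotated gene (chr1:86016816-86029958) and not at its first base. Matches describe letters in these windows and were not read as binding sites.

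Gene counts summed to between 18766971 and 26776555 per library, and 27 of the 30 members had at least 100 counts in every library. Levels are given as normalized CPM, the count scaled by the library total and its TMM factor, and 3 counts, taken as the floor, corresponded to 0.112 to 0.160 CPM, which covers counting error only. Ddx25 was at 538 to 607 CPM in WT and 47.7 to 90.9 CPM in KO. It was at 0.0456 to 0.519 CPM in the KI libraries apart from the library labelled KI 4, which had 56.9 CPM, a level within the KO range. 6 pairs of libraries of one genotype, among them WT 1 with WT 2 and KO 4 with KO 5, differed with a variance of only 2.05 to 3.24 times the sampling noise, where the next closest pair stood at 4.73 times, and the closest pair of all, at 1.59 times, was KO 2 with the library labelled KI 4. Whether a close pair is 1 sample prepared more than once, and whether the library labelled KI 4 is a KO library, was not settled here, and n = 6 therefore counts libraries. Calls of Spata genes that changed with that library left out or with the close pairs summed are given beside the result. Such checks are not given for the other genes named here. The markers Acrv1, Acr, Spaca1, Catsper3 and Izumo1 of RS were present in all libraries, at a summed 450 to 722 CPM in WT, 405 to 784 CPM in KO and 374 to 523 CPM in KI. Of the 5, 1, Catsper3, was lower in both mutants (13.5% of all genes in KO and 15.4% in KI). It changed by -0.53 in KO (adjusted p = 0.0246) and -0.75 in KI (adjusted p = 0.00199) on the log2 scale. Tnp1, Tnp2, Prm1 and Prm2, the chromatin proteins of late spermatids, fell past 1 log2 unit in both mutants (4 of 4, beside 1.13% of all genes in KO and 1.43% in KI), from a summed 9584 to 13319 CPM in WT to 1167 to 2405 in KO and 1314 to 2268 in KI. In bulk RNA, fewer late cells and less RNA per cell cannot be told apart.

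In WT, the Spata genes ranged from 0.225 to 505 CPM per kb of exon, and the most abundant were Spata4 at 505 ± 90.9 CPM per kb (SD, n = 6), Spata24 at 401 ± 93.2, Spata18 at 318 ± 55.7, Spata20 at 248 ± 41.1 and Spata21 at 216 ± 68.9. The least abundant were Spata13, a guanine nucleotide exchange factor for small GTPases, at 0.225 ± 0.0673 CPM per kb, Spata5l1 at 0.316 ± 0.110 and Spata22 at 0.685 ± 0.196. Neighbours in this order mostly did not separate: the libraries of adjacent genes were wholly apart only between Spata25 and Spata31d1c, Spata31d1a and Spata2l, Spata2l and Spata2, and Spata2 and Spata22. Among the first 10 places, differences between neighbours exceeded the larger SD only from Spata4 to Spata24 and from Spata18 to Spata20. The order differed most in the mutants for Spata3, which stood at place 9 in WT and at place 22 in both KO and KI. Spata18 stood at place 3 in WT and place 10 in both mutants, and Spata16 at place 7 in WT and place 3 in both.

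**Figure D1:**
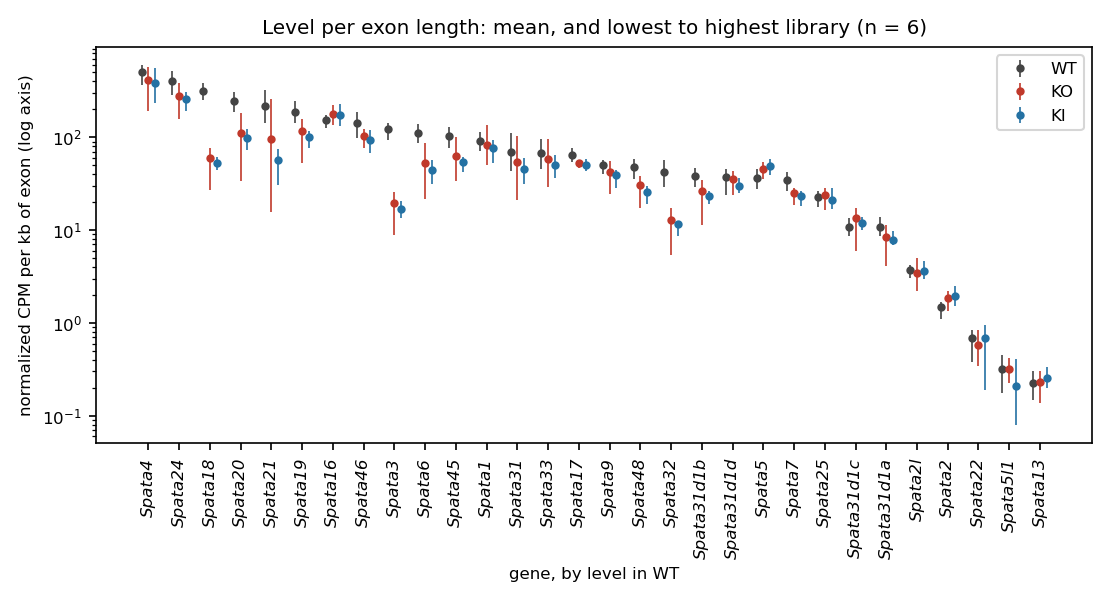
Level of each Spata gene in normalized CPM per kb of exon on a log axis, ordered by the WT mean, with points for the mean of the 6 libraries of WT, KO and KI and lines from the lowest to the highest library. Spata3, Spata18 and Spata32 have mutant ranges wholly under the WT range, with means of 122, 318 and 42.8 CPM per kb in WT.

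The question put to the members was how the loss of GRTH, or of its phosphorylated form, changes them against WT. Against a change of more than 1 log2 unit, 3 of 30 members were downregulated in KO (1.13% of the 21058 genes tested were called) and 3 in KI (1.43% of all genes), and these were Spata3, Spata18 and Spata32 in both. In the other direction 0 members were upregulated past 1 log2 unit in KO or in KI (0.598% and 0.522% of all genes), with 0 at an unadjusted p under 0.05 in edgeR's glmTreat and 0 calls with DESeq2. For a change of any amount, 14 of 30 members were lower in KO (13.5% of all genes) and 15 in KI (15.4%). Upregulated members numbered 0 in KO (16.4% of all genes, with 2 members at an unadjusted p under 0.05 in edgeR and 0 called with DESeq2) and 2 in KI (16.1%), Spata2 and Spata5. The median log2 fold change of the 30 members was -0.32 in KO and -0.51 in KI, beside 0.03 and 0.05 over all genes, and 24 of 30 members were below 0 in each, beside 47.4% and 44.7% of all genes. All KO libraries lay below all WT libraries for 5 members (6.44% of all genes) and above them for 0 (6.62%). All KI libraries lay below all WT libraries for 10 members (7.91% of all genes) and above them for 0 (5.97%). The family took 0.642% ± 0.101 of all counts in WT (SD, n = 6), 0.436% ± 0.129 in KO and 0.397% ± 0.0612 in KI. KO and KI were compared with the same WT libraries, so their values are set side by side and their likeness was not tested.

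**Figure D2:**
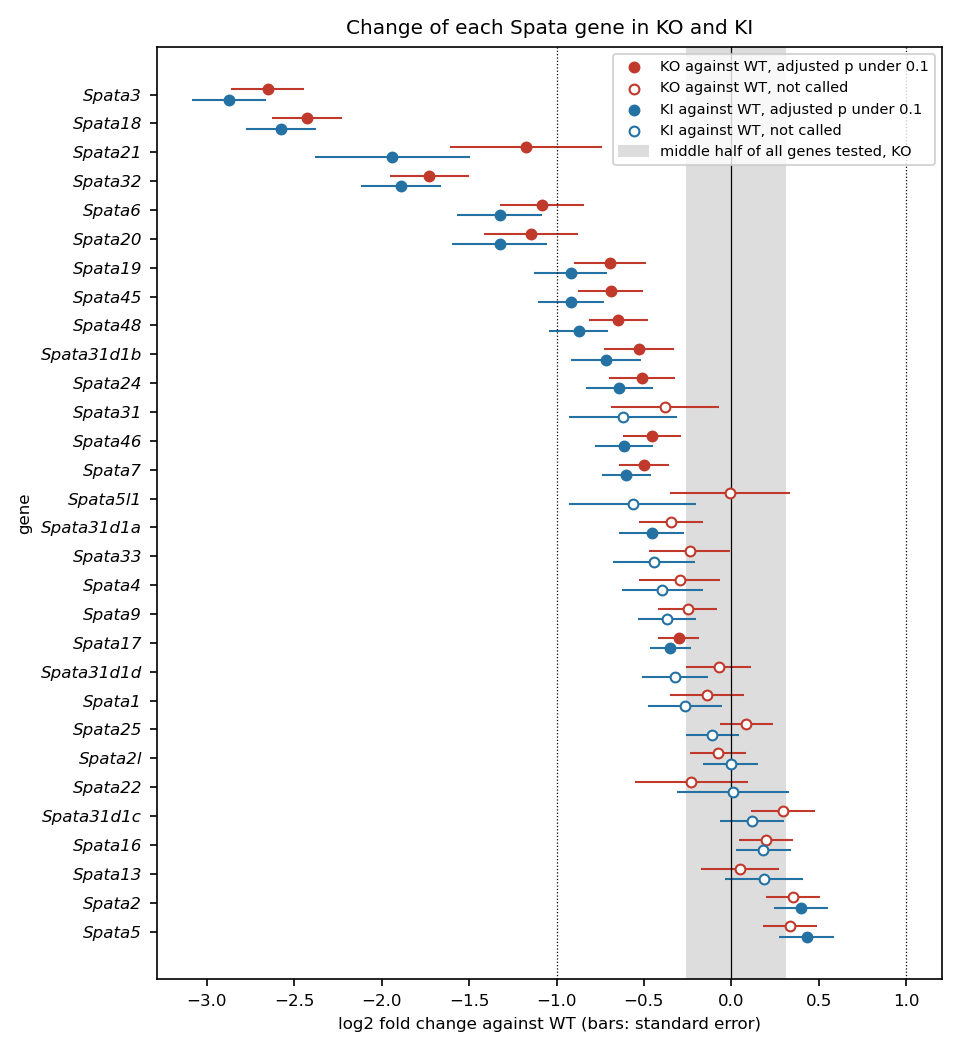
Log2 fold change of each Spata gene in KO (red) and KI (blue) against WT, with bars for the standard error, filled symbols for an adjusted p under 0.1 in the test for any amount, dotted lines at 1 log2 unit and a grey band for the interquartile range of all genes tested in KO. The upper 4 genes, Spata3, Spata18, Spata21 and Spata32, stand farthest to the left, and 24 of 30 genes lie below 0 in each mutant.

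Among the members known for a role in the sperm head, Spata32 and Spata46 were downregulated in both mutants and Spata16 was not called in either. Spata32 (chr11:103208127-103218432), whose product is associated with the acrosome, was at a lowest, median and highest level of 32.4, 45.9 and 63.7 CPM in WT, 5.94, 15.6 and 19.3 CPM in KO and 9.49, 13.5 and 13.995 CPM in KI. Every library of either mutant lay below every WT library. Its log2 fold change was -1.73 ± 0.23 (SE) in KO, with an adjusted p of 0.0988 against 1 log2 unit, and -1.89 ± 0.23 in KI, with an adjusted p of 0.0205. The KO call against 1 log2 unit was close to its threshold: the adjusted p was 0.112 to 0.306 in the 12 fits that left out WT 1, 2 or 5, KO 1, 2, 3 or 6, or KI 1, 2, 4, 5 or 6, 0.108 with DESeq2, 0.129 with at least 10 counts in every library and 0.149 with only the 2 genotypes compared. With the close pairs of libraries summed, that call was lost in KO (adjusted p = 0.229) and in KI (0.270), while the call for any amount was kept in both in all alternatives.

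Spata46 (chr1:170308803-170312125), a protein at the nuclear envelope of the spermatid that takes part in head shaping, was at 75.4, 106 and 145 CPM in WT, 58.9, 84.3 and 95.5 CPM in KO and 51.7, 74.2 and 92.0 CPM in KI. The ranges overlapped in both comparisons. It changed by -0.46 ± 0.17 in KO (adjusted p = 0.0528) and by -0.61 ± 0.17 in KI (adjusted p = 0.00914), and the KO call was lost without WT 4, KO 3 or KO 6 (adjusted p = 0.111 to 0.113) and with the close pairs summed (0.143). The KI call was lost with the close pairs summed (adjusted p = 0.128). Spata16 (chr3:26637620-26983212), which is required for the acrosome to form, was at 263, 351 and 364 CPM in WT, 284, 376 and 466 CPM in KO and 282, 353 and 480 CPM in KI. All 3 ranges overlapped, and the 95% interval of its log2 fold change ran from -0.11 to 0.50 in KO and from -0.12 to 0.49 in KI. Of 9 other genes of acrosome formation, 0 were lower in either mutant (13.5% of all genes in KO and 15.4% in KI). Gopc and Smap2 were higher in KO (16.4% of all genes), by 0.47 and 0.46 on the log2 scale, and Gopc was higher in KI (16.1%), by 0.45. Their median log2 fold change was -0.05 in KO and -0.04 in KI, 0 were lower at an unadjusted p under 0.05 in edgeR, and their summed level was 945 to 1042 CPM in WT, 787 to 1173 in KO and 752 to 1045 in KI.

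In the group of the connecting piece and tail, Spata6 and Spata17 were downregulated in both mutants, and Spata4 and Spata33 were not called in either. Spata6 (chr4:111719984-111829184), which is needed to build the connecting piece between head and tail, was at 493, 609 and 773 CPM in WT, 123, 312 and 486 CPM in KO and 178, 253 and 318 CPM in KI. The KO and KI libraries all lay below the WT libraries, with KO 1 the nearest to them. Its log2 fold change was -1.08 ± 0.24 in KO (adjusted p = 0.00206) and -1.33 ± 0.24 in KI (adjusted p = 0.000291), and neither passed the test against 1 log2 unit. Spata17 (chr1:187044648-187215465), which binds calmodulin, ranged from 156 to 222 CPM in WT, from 135 to 162 CPM in KO and from 123 to 168 CPM in KI. Its change was small, at -0.30 ± 0.12 in KO (adjusted p = 0.0688) and -0.35 ± 0.12 in KI (adjusted p = 0.0320). The KO call was lost without WT 3, WT 4, KO 3, KO 4 or KO 5 (adjusted p = 0.105 to 0.160), the KI call without WT 3 (0.152), and both with the close pairs summed (0.268 and 0.240) or with no filter on low counts.

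Spata4 (chr8:54600781-54610098), the most abundant member per kb in all 3 genotypes, was at 390, 548 and 634 CPM in WT, 201, 492 and 598 CPM in KO and 247, 375 and 589 CPM in KI. Its ranges overlapped widely, and the 95% interval of its log2 fold change was -0.75 to 0.16 in KO and -0.85 to 0.06 in KI. Spata33, which ties calcineurin to the mitochondria of the midpiece, was at 196 to 413 CPM in WT, 124 to 410 in KO and 157 to 277 in KI, with adjusted p-values of 0.521 and 0.180. Of the 5 calcineurin subunit genes, 0 were called in either mutant in edgeR, with medians of -0.09 in both. At an unadjusted p under 0.05 there were 0 in KO and 1 in KI, Ppp3r1 (adjusted p = 0.122). Of all genes, 13.5% were called lower and 16.4% higher in KO, and 15.4% and 16.1% in KI. Beside these shares, 0 of 5 does not set the calcineurin genes apart. The genes of head-to-tail coupling were lower where called, with 5 of 10 called in KO (13.5% of all genes) and 7 in KI (15.4%), medians of -0.44 and -0.57, and 0 higher in either, also at an unadjusted p under 0.05 in edgeR. Odf1, a protein of the outer dense fibres, ranged from 546 to 739 CPM in WT, from 91.9 to 224 in KO and from 127 to 198 in KI, and fell past 1 log2 unit in both, with log2 fold changes of -1.86 ± 0.18 and -1.95 ± 0.18. Pmfbp1, a protein of the connecting piece, was at 246 to 553 CPM in WT and 29.4 to 59.1 in KI, with a log2 fold change of -2.94 ± 0.54 past 1 log2 unit. In KO it was at 25.7 to 76.5 CPM in 5 libraries and at 451 in KO 1.

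Of the members tied to mitochondria, Spata18 and Spata19 were downregulated in both mutants and Spata33, given above, was not called. Spata18 (chr5:73651379-73679512), which encodes Mieap, a protein of mitochondrial quality control, was at 534, 686 and 808 CPM in WT, 57.0, 135 and 160 CPM in KO and 93.6, 115 and 130 CPM in KI. Every KO and KI library lay far below the lowest WT library. Its mean was 5.37-fold lower in KO and 5.96-fold lower in KI, as log2 fold changes of -2.43 ± 0.20 and -2.57 ± 0.20 (adjusted p = 3.2e-05 and 7.6e-06 against 1 log2 unit). Both calls were kept in all 28 alternatives, with the log2 fold change between -2.51 and -2.28 in KO and between -2.63 and -2.48 in KI. Spata19 (chr9:27396800-27401785), needed for the mitochondrial sheath of the midpiece and for motility, was at 209, 261 and 357 CPM in WT, 77.2, 179 and 230 CPM in KO and 111, 148 and 169 CPM in KI. The KI libraries all lay below WT, whereas the highest KO library, KO 1, reached into the WT range. It changed by -0.69 ± 0.21 in KO (adjusted p = 0.0173) and -0.92 ± 0.21 in KI (adjusted p = 0.00212). Of 6 other genes of mitochondrial quality control, 0 were lower in either mutant (13.5% of all genes in KO and 15.4% in KI). That held also at an unadjusted p under 0.05 in edgeR, and the medians were 0.06 and -0.04. Beside these shares, 0 of 6 lower does not set the list apart. Bnip3 and Bnip3l, receptors for mitophagy, were higher in both (16.4% of all genes in KO and 16.1% in KI). Their log2 fold changes were 0.87 and 0.36 in KO and 0.70 and 0.33 in KI.

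**Figure D3:**
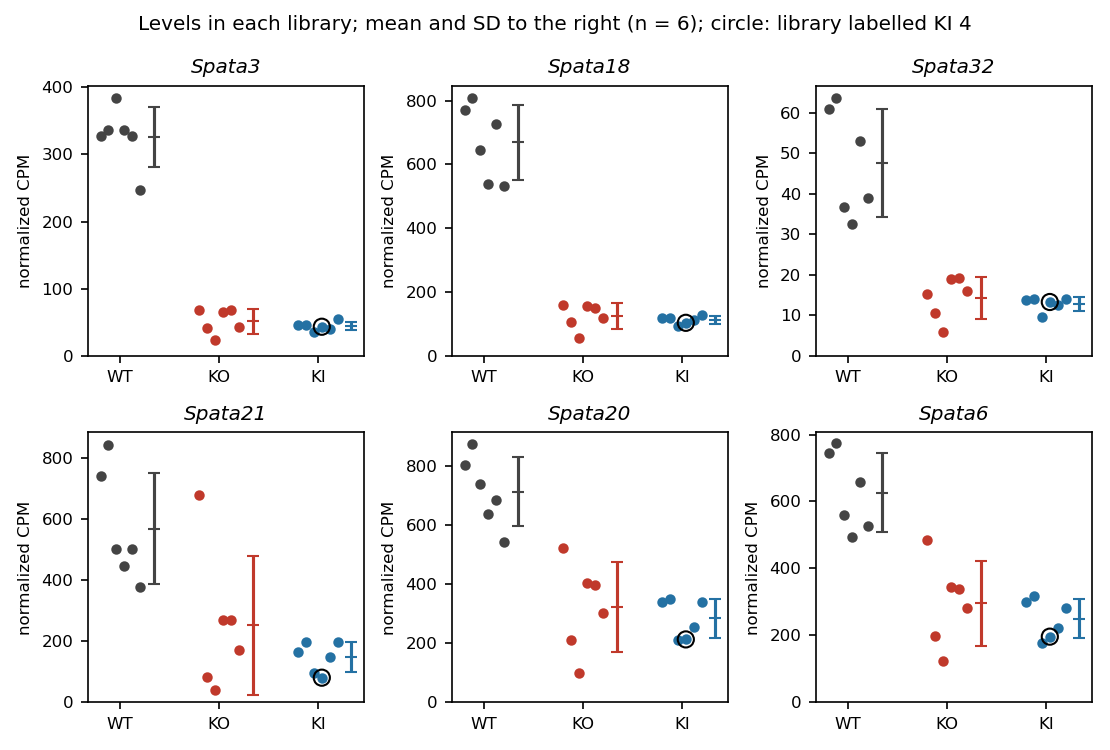
Normalized CPM in each library of WT, KO and KI for the 6 Spata genes with the largest falls in KI, with the mean and SD (n = 6) beside the points and a circle around the library labelled KI 4, and each panel starts at 0 and has its own scale. The mutant libraries of Spata3, Spata18, Spata32, Spata20 and Spata6 all lie below the WT libraries, and in Spata21 the KO library at 678 CPM lies among the WT libraries.

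Spata22 (chr11:73329741-73346044) works with MEIOB and RPA on single-stranded DNA in meiotic recombination and was low in RS, at 0.478 to 1.07 CPM in WT, 0.437 to 1.07 in KO and 0.239 to 1.22 in KI. Its log2 fold change had a 95% interval of -0.86 to 0.40 in KO and -0.62 to 0.63 in KI, so that changes of the sizes within these intervals remain possible. Of its exon bases 80.5% also belong to a second annotated gene on the same strand, Gm49340, and fragments there may have been left uncounted, which makes its level uncertain. Among 8 genes of meiotic single-strand DNA binding, with medians of 0.23 in KO and 0.26 in KI, Meiob was lower in KO (-0.46 ± 0.15), and, of the members reported here, Rpa2 and Dmc1 were higher, by 0.39 and 0.82. In KI, 0 of the 8 were lower in edgeR (15.4% of all genes, with 1 of the 8 at an unadjusted p under 0.05). Rpa2, Dmc1 and Hsf2bp were higher in KI (16.1% of all genes), by 0.32, 0.50 and 0.25. Their adjusted p-values in edgeR were 0.0475, 0.0667 and 0.0884. Dmc1 was at 7.62 CPM in the library labelled KI 4, at 3.55 to 4.77 CPM in the other KI libraries and at 2.48 to 4.61 CPM in WT. Spermatocyte markers summed to 329 to 434 CPM in WT, 408 to 480 in KO and 391.8 to 452 in KI, and went in both directions. Sycp3 was higher in both mutants (0.74 in KO and 0.75 in KI) and Hormad1 in KO (0.31). Spo11 was lower in both (-0.45 and -0.37) and Meiob in KO, and Sycp1 was not called. The part of spermatocytes in these values was not tested.

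Of the 7 members used in many tissues, Spata20 and Spata7 were downregulated in both mutants (13.5% of all genes in KO and 15.4% in KI). Spata2 and Spata5 were the members called higher in KI (16.1% of all genes). Spata20 (chr11:94478904-94486179), a thioredoxin-like protein, was at 544, 712 and 874 CPM in WT, 97.8, 350 and 523 CPM in KO and 211, 297 and 351 CPM in KI. Both mutants lay below WT in every library, and KO spread 5.34-fold from its lowest to its highest library. Its log2 fold change was -1.15 ± 0.27 in KO (adjusted p = 0.00319) and -1.33 ± 0.27 in KI (adjusted p = 0.000840). Spata7 (chr12:98628157-98669815), a protein of the connecting cilium of photoreceptors, ranged from 264 to 431 CPM in WT, 189 to 285 in KO and 184 to 267 in KI, with changes of -0.50 ± 0.14 (adjusted p = 0.0121) and -0.60 ± 0.14 (adjusted p = 0.00289).

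Spata5 (chr3:37419896-37579096), an AAA ATPase of ribosome maturation, was at 108, 143 and 178 CPM in WT, 137, 182 and 209 CPM in KO and 151, 194 and 226 CPM in KI. Spata2 (chr2:167481133-167492887), which joins the deubiquitinase CYLD to the linear ubiquitin ligase, was at 4.98, 6.79 and 7.52 CPM in WT, 6.05, 8.62 and 10.04 CPM in KO and 6.87, 8.16 and 11.3 CPM in KI. The ranges of both genes overlapped with WT. In KI the log2 fold change was 0.43 ± 0.16 for Spata5 (adjusted p = 0.0474) and 0.40 ± 0.15 for Spata2 (adjusted p = 0.0619). In KO it was 0.33 ± 0.16 (adjusted p = 0.132) and 0.35 ± 0.15 (adjusted p = 0.105), and neither was called. Spata2 was called higher in KO without WT 4, KO 1, KI 1, KI 5 or the library labelled KI 4 (adjusted p = 0.0424 to 0.0996, and 0.0987 without the library labelled KI 4), and Spata5 without WT 3, WT 4 or KO 1 (0.0686 to 0.0953). Both KI calls were lost without the library labelled KI 4 (adjusted p = 0.102 for Spata5 and 0.129 for Spata2), without WT 1 or WT 2 (0.115 and 0.116 for Spata5, 0.148 and 0.108 for Spata2) and with the close pairs summed (0.217 and 0.237), and that of Spata2 also without KI 1 (0.153). Rnf31 encodes the catalytic subunit of the ligase. Of the 5 genes of CYLD and linear ubiquitin, Cyld and Rnf31 were called higher in both mutants (16.4% of all genes in KO and 16.1% in KI). Their log2 fold changes were 0.42 and 0.66 in KO and 0.30 and 0.78 in KI. The KI call of Cyld was close to its threshold (adjusted p = 0.0984 in edgeR). Cyld was at 23.4 CPM in the library labelled KI 4 and at 14.2 to 19.3 CPM in the other KI libraries. Whether its KI call holds without the library labelled KI 4 is not given here. Of the 5 genes, 0 were lower in either mutant (13.5% of all genes in KO and 15.4% in KI), with medians of 0.14 and 0.07. That held also at an unadjusted p under 0.05 in edgeR. Spata2l, a paralogue of Spata2, had adjusted p-values of 0.791 and 0.990, Spata13 of 0.914 and 0.611, and Spata5l1, a paralogue of Spata5 with 3 or fewer counts in some library, of 0.993 and 0.286, in KO and KI. Without KI 2, Spata5l1 was called lower in KI (adjusted p = 0.0899).

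The Spata31 genes lie on chromosome 13 and encode large proteins of male germ cells. Of the 5, 1 was lower in KO (13.5% of all genes) and 2 in KI (15.4%). Spata31d1b was downregulated in both mutants and Spata31d1a in KI, while Spata31, Spata31d1c and Spata31d1d were not called. Spata31d1b (chr13:59712284-59719295) was at 124, 170 and 200.5 CPM in WT, 48.6, 118 and 149 CPM in KO and 82.6, 103 and 114 CPM in KI. KI lay wholly below WT and KO did not, with changes of -0.53 ± 0.20 in KO (adjusted p = 0.0590) and -0.72 ± 0.20 in KI (adjusted p = 0.0105). The KO call was lost without WT 4 or KO 2 (adjusted p = 0.118 and 0.115), and both calls with the close pairs summed (0.131 and 0.129). Spata31d1a, its neighbour (chr13:59699806-59710330), ranged from 48.4 to 77.0 CPM in WT, 23.1 to 63.9 in KO and 39.2 to 55.3 in KI, with -0.35 ± 0.18 in KO (adjusted p = 0.195) and -0.46 ± 0.19 in KI (adjusted p = 0.0772). That KI call was lost without WT 1, 2 or 3 or KI 1, 2, 3, 4 or 5 (adjusted p = 0.106 to 0.180), with DESeq2 (0.101), with no filter on low counts (0.131) and with the close pairs summed (0.368). These neighbours share sequence, as 24.9% of the 50-base stretches of Spata31d1b and 19.7% of those of Spata31d1a occur in another gene, so their separate counts are uncertain. Spata31d1c had a log2 fold change of 0.29 ± 0.18 in KO and 0.12 ± 0.18 in KI, Spata31d1d of -0.07 ± 0.19 and -0.32 ± 0.19, and Spata31 of -0.38 ± 0.31 and -0.62 ± 0.31. Leaving out 1 library gave a call in KO for Spata31d1c, which was higher without KO 3 (0.45, adjusted p = 0.0178), and for Spata31, which was lower without KO 1 (-0.67, adjusted p = 0.0983).

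The other 8 members have no role assigned here, and 5 of them, Spata3, Spata21, Spata45, Spata48 and Spata24, were downregulated in both mutants (13.5% of all genes in KO and 15.4% in KI). Spata3 (chr1:86016816-86029958) had the largest fall of the family, from a lowest, median and highest level of 247, 332 and 384 CPM in WT to 23.3, 54.6 and 69.0 CPM in KO and 36.2, 44.6 and 55.0 CPM in KI. Its KO and KI libraries overlapped each other and all lay far below WT. It was 6.28-fold lower in KO and 7.32-fold lower in KI, with log2 fold changes of -2.65 ± 0.21 and -2.87 ± 0.21 (adjusted p = 8.8e-06 and 1.3e-06 against 1 log2 unit). Both calls were kept in all 28 alternatives, at -2.75 to -2.50 in KO and -2.94 to -2.76 in KI. Spata21 (chr4:141088333-141112760) was at 378, 502 and 842 CPM in WT, 40.7, 219 and 678 CPM in KO and 80.9, 158 and 199 CPM in KI. KI lay wholly below WT, whereas KO spread 16.6-fold, with KO 1 among the WT libraries. Its log2 fold change was -1.17 ± 0.43 in KO (adjusted p = 0.0537) and -1.94 ± 0.44 in KI (adjusted p = 0.00235). Without KO 1 the KO value was -1.77 (adjusted p = 0.00161), and the KO call was lost without WT 1, WT 2, KO 2 or KO 6 (0.103 to 0.119) or with the close pairs summed (0.223).

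Spata45 (chr1:191036639-191042942) ranged from 39.0 to 65.7 CPM in WT, 16.95 to 50.4 in KO and 21.1 to 31.1 in KI, and changed by -0.69 ± 0.19 (adjusted p = 0.00940) and -0.92 ± 0.19 (adjusted p = 0.000890). Spata48 (chr11:11462094-11515192) ranged from 67.0 to 108 CPM in WT, 32.3 to 71.1 in KO and 35.9 to 55.4 in KI, and changed by -0.65 ± 0.17 (adjusted p = 0.00686) and -0.87 ± 0.17 (adjusted p = 0.000499). For both genes the KI libraries lay below all WT libraries and the KO libraries did not. Spata24 ranged from 277 to 503 CPM in WT, 152 to 369 in KO and 185 to 297 in KI, and changed by -0.51 ± 0.19 (adjusted p = 0.0568) and -0.64 ± 0.19 (adjusted p = 0.0161). The KO call of Spata24 was lost without WT 1, WT 2, KO 2 or KO 3 (adjusted p = 0.114 to 0.141), and both its calls with the close pairs summed (0.169 and 0.146). Of its 50-base stretches 32.5% also occur in SPATA24, a second gene that GENCODE M21 annotates over the same place. In the count table, 0 of the exon bases of Spata24 belong to another gene on the same strand. Whether the second annotation bears on the level of Spata24 was not tested. Spata1, Spata9 and Spata25 were not called in either mutant, with log2 fold changes of -0.14 ± 0.21, -0.25 ± 0.17 and 0.08 ± 0.15 in KO and -0.27 ± 0.21, -0.37 ± 0.17 and -0.11 ± 0.15 in KI. Spata9 was called lower in KI without WT 6 (adjusted p = 0.0784) or KO 3 (0.0551).

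KI was also compared with KO directly, to ask whether loss of the phosphorylated form alone and loss of the whole protein differ in their effect on the family. For a difference of any amount, 0 of 30 members were called (0.0997% of all genes), 0 had an unadjusted p under 0.05, and the lowest adjusted p was 0.961. DESeq2 also called 0, and without the library labelled KI 4 the lowest adjusted p was 0.561. The KI value was below the KO value in 25 of 30 members, beside 53.5% of all genes, with a median difference of -0.16 on the log2 scale beside -0.02. The 95% intervals of the difference were -0.61 to 0.17 for Spata3, -0.52 to 0.22 for Spata18, -0.60 to 0.27 for Spata32 and -1.61 to 0.08 for Spata21, so differences of the sizes within these intervals remain possible.

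Within a genotype, the lowest and highest values were spread unevenly over the libraries. KO 3 was the lowest KO library in 25 of 30 members (29.0% of all genes) and KO 1 the highest in 17 (24.2% of all genes), though KO 1 was also the lowest in 3 (23.3%). The library labelled KI 4 was the lowest KI library in 5 members (12.4% of all genes) and the highest in 5 (25.5%). KI 6 was the highest KI library in 11 members (7.17% of all genes). KI 3 was the lowest KI library in 18 members (25.3% of all genes), and WT 2 the highest WT library in 16 (19.3% of all genes). Without KO 3, 11 members were lower in KO for any amount (12.2% of all genes in that fit), and without KO 1, 15 were (14.3%). With the close pairs summed, 9 members were lower in KO (7.74% of all genes) and 10 in KI (7.73%), and 0 were higher in either (8.11% and 7.02%). With the library labelled KI 4 left out as well, the counts lower were 9 (7.62% of all genes) and 7 (6.87%), and the KI calls of Spata7, Spata19 and Spata21 were lost as well (adjusted p = 0.115, 0.115 and 0.144). Leydig cell markers were higher in both mutants in 5 of 5 (16.4% of all genes in KO and 16.1% in KI), at a summed 9.68 to 19.7 CPM in WT, 29.6 to 51.0 in KO and 13.2 to 65.7 in KI, with no listed marker at 0 in all libraries. In KI the sum was above the WT range in KI 1, KI 2 (a close pair) and the library labelled KI 4. It was within the WT range in KI 3, KI 5 and KI 6. Star differed from that, at 3.49 to 4.64 CPM in WT and 4.90 to 8.02 CPM in KI. Spermatogonial markers summed to 20.2 to 27.9 CPM in WT, 26.0 to 52.7 in KO and 15.3 to 54.0 in KI (2 and 1 of 5 higher, beside 16.4% and 16.1% of all genes), and Sertoli markers to 4.23 to 7.59, 3.16 to 6.94 and 3.66 to 6.48 (Wt1 lower in both). Macrophage markers summed to 3.29 to 5.26, 4.58 to 6.85 and 6.18 to 8.38 CPM (Csf1r higher in both), endothelial markers to 1.61 to 4.57, 1.71 to 3.54 and 1.501 to 3.43 (0 called) and peritubular markers to 4.67 to 6.14, 3.88 to 5.501 and 3.62 to 6.39 (Myh11 lower in both, Acta2 higher in KO). The part of these cells, and of the fall in Tnp1, Tnp2, Prm1 and Prm2, in the values of the members was not tested.

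**Figure D4:**
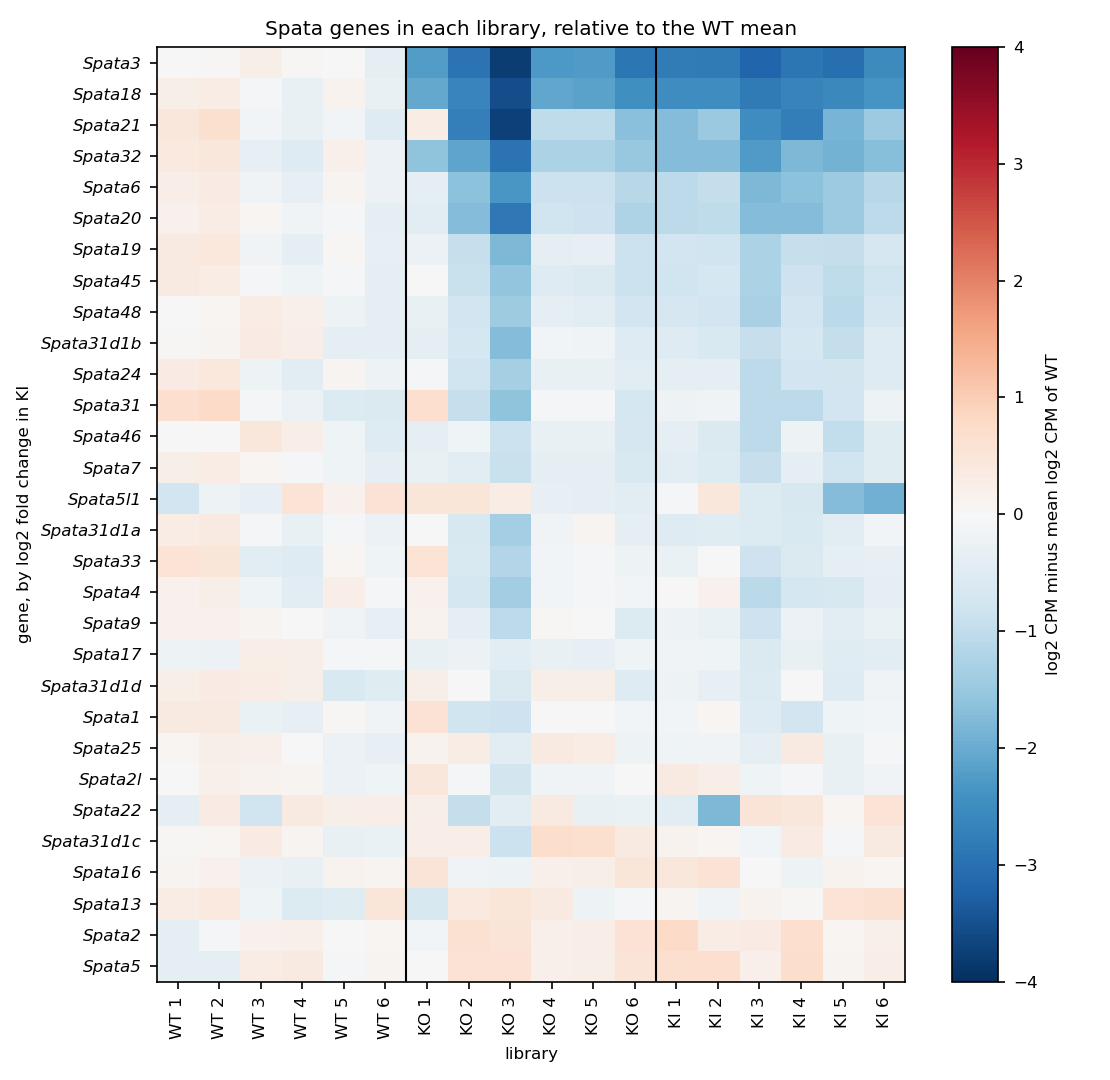
Each Spata gene (rows, ordered by log2 fold change in KI) in each library (columns), as log2 CPM minus the mean log2 CPM of the 6 WT libraries, with blue below and red above that mean. KO 3 is the lowest KO library in 25 of 30 genes, and Spata3 and Spata18 are blue in every KO and KI library.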

How the data were processed

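Each genotype was profiled in 6 RS libraries, made with a Takara Pico kit without polyA selection. The authors trimmed reads with cutadapt 3.4, aligned them to GRCm38 (mm10) with STAR 2.7.8a and deposited raw counts per gene of GENCODE M18, made strand-specifically with featureCounts (Subread 2.0.1). Duplicates were marked and not removed. Counts were used as deposited, with 0 value columns left without a library, and symbols came from GENCODE M21 (54079 of 54232 identifiers). Labels gave genotype and number of each library.

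Library totals of 18766971 to 26776555 counts set the precision. Genes were filtered with filterByExpr (21058 kept), scaled with TMM and fitted in one quasi-likelihood model of genotype over 18 libraries in edgeR 4.0.16 (R 4.3.3, limma 3.58.1). Any amount was tested with glmQLFTest and changes past 1 log2 unit with glmTreat, with Benjamini-Hochberg adjustment over all genes tested and a threshold of 0.1. The fit was tested on simulated data. Intervals are 95%, as 1.96 standard errors. CPM per kb used the exon length of the count table. Alternatives were DESeq2 1.42.0, its size factors, other filters, 2 genotypes per fit, a replicate block, a threshold of 0.05, close pairs of libraries summed (12 samples), and each library left out. The interval null of glmTreat and the summed pairs with the library labelled KI 4 left out were added after the data were seen.

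Every member is accounted for. Values per library are given for members called past 1 log2 unit, for called members as far as each role group needed, and for abundant members not called. Members follow from the symbol rule alone, and that rule, the lists and the roles were set with earlier results of these data known. Replicate numbers entered only the block. A member of the meiotic list is not reported here. Python 3.11.15 with matplotlib 3.10.9 drew the figures.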

Additional observations from a re-analysis of the deposited data

Results flagged for a closer look

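Groups of 6 libraries were searched for a highest or lowest library that stood apart by more than 0.625 of the range of the group. Of 90 groups (30 members in 3 genotypes), 3 were marked, where chance alone marks about 1 in 20. Spata21 in KO was at 678 CPM in KO 1 and at 40.7 to 271 CPM in the other KO libraries. Spata31d1a in KI was at 55.3 CPM in KI 6 and at 39.2 to 44.3 CPM in the others. Spata32 in KI was at 9.49 CPM in KI 3 and at 12.5 to 13.995 CPM in the others. Ddx25, which checks the labels, was at 56.9 CPM in the library labelled KI 4 and at 0.0456 to 0.519 CPM in the other KI libraries.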

How the results depend on the processing

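The 14 members lower in KO for any amount became 9 at an adjusted p threshold of 0.05, 9 with the close pairs of libraries summed and 9 with the library labelled KI 4 left out as well, and 11 to 15 with each library left out in turn. The shares over all genes were 10.7%, 7.74% and 7.62% in those fits, and 11.9% to 14.3% with each library left out. The 15 lower in KI became 7 with pairs summed and that library left out (6.87% of all genes), and 13 to 16 with each library left out (12.3% to 16.2%). The 0 higher in KO became 1, Spata2, with at least 10 counts in every library (17.9% of all genes), 1, also Spata2, with only the 2 genotypes compared (18.4%), and 0 to 2 with each library left out (13.7% to 16.8%). The 2 higher in KI became 1 at a threshold of 0.05 (12.2% of all genes), 0 with pairs summed (7.02%) and 0 with the library labelled KI 4 left out as well (5.32%). With each library left out they were 0 to 2 (13.7% to 18%), with 0 without the library labelled KI 4 (14.5%). Counts lower past 1 log2 unit were 2 to 3 in KO (0.961% to 1.19% of all genes) and 3 in KI (1.21% to 1.68%) with each library left out. Summing pairs leaves 12 samples, and the cause of the other changes was not tested. In the tests of single genes 0 values reversed.

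Same-numbered libraries deviated together in some pairs and not in others. Their correlations ran from -0.44 to 0.48, the highest for KO 3 with KI 3, and 7 of 18 exceeded 0.1. Differently numbered libraries were not compared, so a pairing by number was not settled. With the replicate block, 13 members were lower in KO (13.8% of all genes) and 17 in KI (15.8%) for any amount. In that fit 2 were higher in KI (15.2%), and 3 were lower past 1 log2 unit in each (1.16% and 1.49%). The KO call of Spata17 was lost under the block (adjusted p = 0.109), and Spata9 and Spata33 became lower in KI (0.0762 and 0.0970). Counts are lowest for Spata22, Spata5l1 and Spata13, and how far depth limits their tests was not separated from the spread between libraries.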
